A study of Mus musculus with 12 samples.

Results

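The genes described here are 8 cell adhesion genes followed through neuronal differentiation of P19 cells: the cadherins Cdh1, Cdh2 and Cdh3, the epithelial adhesion molecule Epcam, the claudins Cldn6 and Cldn7, and the neural adhesion molecules Ncam1 and L1cam. They were taken by name from the 14042 genes with a kept read, and a read counted when it carried the quality tag PASS and lay on a transcript of the mRNA class. Of the 8 genes, 6 had at least 1 read and 4 (Cdh2, Epcam, Ncam1 and L1cam) had the 30 reads over all libraries that the tests required. P19 is a wild-type mouse embryonal carcinoma line, a tumour-derived stem cell that becomes neuronal under retinoic acid, and 1 line is 1 genetic background. Cells at day 0 (D0) were undifferentiated and grown in serum medium. Cells at days 2, 4 and 6 (D2, D4 and D6) were plated on poly-L-lysine in NDiff 227 medium with 500 nM retinoic acid, so that the medium, the plating and the retinoic acid changed together and their parts cannot be told apart. Each day had 3 biological replicates, and native poly(A) RNA was read molecule by molecule on a Nanopore MinION.

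Cadherins hold neighbouring cells together through calcium-dependent contacts of their outer domains, while catenins tie their inner tails to the actin cytoskeleton. E-cadherin, the product of Cdh1, is typical of epithelia and of pluripotent cells, and N-cadherin, the product of Cdh2, is typical of neuroepithelium and neurons. A change from the former to the latter is known as a cadherin switch and accompanies the formation of neural tissue in the embryo. Epcam marks epithelial and pluripotent cells, claudins form the strands of tight junctions, and Ncam1 and L1cam are immunoglobulin-type molecules of the neuronal surface that take part in axon growth.

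In all, 4274320 reads were kept, 449406 to 613756 in a D0 library, 120326 to 241064 in a D2 library, 252203 to 435389 for D4 and 271499 to 428800 for D6. Levels are given as CPM, the reads of a gene per 1000000 reads of its library after scaling by trimmed means of M-values (TMM), with 1 read standing for 1 RNA molecule. Each of the 13 sequencing runs held libraries of a single day, so that run and day cannot be told apart. The day of a run is that of the labels of its libraries, since the names of the 3 D0 runs read undifferentiated but carry D2 and 2 of the 4 D6 run names give no day. The markers of the labelled cell states followed the labels between D0 and D6. The summed level of 10 undifferentiated markers, 7 of them with reads, was 1981 to 2267 CPM at D0 and 178 to 220 at D6, and Utf1 and Tdgf1 were at 0 reads at D6. Nearly all of the D6 level was Sox2, with a mean of 199 CPM (264 at D0), while Pou5f1 had 0.90 CPM (1707 at D0). The 10 neuron markers together lay between 541 and 568 at D0 and between 2691 and 2900 at D6. At D2 their sum lay below D0, between 309 and 510. Of the 10, 2 were called lower than at D0 and 1 higher, beside 10.7% of all genes called. Their median log2 fold change at D2 was 0.69. Stmn2 went from 320 CPM at D0 to 77.1 at D2 and Tubb3 from 141 to 62.1, while Gap43 went from 63.7 to 252. The 8 neural progenitor markers moved from 604–653 at D0 to 2775–3269 at D6. Among markers of other cell types, the endoderm list lay at 77.7 to 85.9 at D0 and 37.3 to 67.5 at D6 with Gata4, Sox17, Afp and Ttr at 0, the mesoderm and muscle list at 40.5 to 42.6 and 0 to 8.10 with Tnnt2 and Myod1 at 0, the fibroblast list at 10.5 to 13.0 and 0, and the glia and neural crest list at 2.38 to 4.19 and 0 to 7.46 with Aqp4, Sox10 and S100b at 0. The part of these other cells in the results was not tested.

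Direct RNA reads start at the poly(A) tail, so the 3′ ends of the members could be placed on the genome (mm10). The 30 bases before the commonest end are shown for every end cluster with at least 5 reads outside Cdh2. These ends carry nearly all reads of the members other than Cdh2. The windows of the Cdh2 ends are not shown, so nothing is said of their signals. They are written 5′ to 3′ on the strand of the transcript, from the GENCODE transcript sequences, and capitals mark the polyadenylation signal AATAAA or, where that was missing, its variant ATTAAA.
Cdh1, 5 of 5 reads, chr8:106670217-106670246, plus strand: gaattttATTAAAgagttttgttaaactgt
Cdh3, 6 of 7 reads, chr8:106556082-106556111, plus strand: atgtactagaatttttttATTAAAatgaac
Epcam, upstream end, 40 of 50 reads, chr17:87650875-87650904, plus strand: tttttaatgaAATAAAacattttaaagtga
Epcam, downstream end, 10 of 50 reads, chr17:87651100-87651129, plus strand: ctatctgaaagaAATAAAaatcaaacttaa
Ncam1, upstream end, 6 of 58 reads, chr9:49503645-49503674, minus strand: tcatagtattgaAATAAAacttcaacatag
Ncam1, downstream end, 48 of 58 reads, chr9:49502141-49502170, minus strand: ttgtgttcAATAAAagttgaaagaaaaaaa
L1cam, 54 of 56 reads, chrX:73853778-73853807, minus strand: ataacaggcaAATAAAaacctagaaatgaa
All 7 windows held 1 of the signals, which began between 12 and 23 bases before the end. For comparison, AATAAA was present in the last 30 bases of 35.5% of 58797 annotated protein-coding transcripts and ATTAAA without AATAAA in 8.59%, searched on the same strand only. These transcripts were taken with or without reads, so they are a set unlike the 7 windows, and nothing is read from the difference. All 7 ends lay in the last exon of their transcript. Reads were aligned to annotated transcripts, so no end could lie past the annotated end of its model. The ends of Cdh1 and L1cam and the downstream end of Epcam were the last annotated base of their models. The ends were thus partly set by the annotation.

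The classical cadherins came first. Cdh2 (chr18:16588877-16809246, minus strand in its most-read transcript ENSMUST00000025166.13, which has 16 exons) held 582 reads, beside 5 for Cdh1 and 7 for Cdh3, and it was the most-read cadherin in each of the 12 libraries. At D0 the 3 libraries held 72, 76 and 60 Cdh2 reads, or 172, 141 and 126 CPM. At D2 the counts were 9, 27 and 25 reads, or 71.3, 108 and 132 CPM. The D4 libraries gave 24, 49 and 47 reads, or 97.6, 115 and 108 CPM. At D6 there were 32, 84 and 77 reads, or 119, 176 and 208 CPM. The middle days were thus the lowest on average, and D0 and D6 overlapped. As mean ± SD (n = 3), Cdh2 had 146 ± 23.4 CPM at D0, 104 ± 30.8 at D2, 107 ± 8.72 CPM at D4 and 168 ± 44.8 at D6. In bulk RNA, the number of cells of a type and the RNA per cell cannot be told apart.

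No contrast with D0 passed the test for Cdh2. In limma-voom, with Benjamini-Hochberg adjustment over 9309 genes, its log2 fold change was -0.42 ± 0.24 (SE, adjusted p = 0.280) at D2, -0.41 ± 0.19 (adjusted p = 0.12) at D4 and 0.22 ± 0.18 (adjusted p = 0.334) at D6. The 95% interval at D6 ran from -0.13 to 0.58. Between D4 and D6 Cdh2 rose by 0.63 ± 0.20 on the log2 scale (adjusted p = 0.0338). This call depended on single libraries and on the method. The adjusted p was 0.137, 0.110 and 0.0847 without D4 replicate 1, 2 or 3. It was 0.121 and 0.221 without D6 replicate 2 or 3. The call was also lost with no filter on low counts (adjusted p = 0.0624) and with the limma trend method (0.132). With a mapping quality of at least 10 it was lost too (0.125). Scaling by library totals alone raised the D6 value to 0.46 (adjusted p = 0.0330), and it also raised the median of all genes from 0.01 to 0.26.

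Cdh1 was nearly at the limit of detection and was seen at D0 only. Its 3 D0 libraries held 1, 3 and 1 reads, and none of the 9 later libraries held any. Over library totals, before TMM scaling, the pooled D0 level was 3.16 reads per 1000000 (exact 95% interval 1.03 to 7.38), whereas 0 of 2692189 later reads allows up to 1.11. A limit for a count of 0 is here the level of 3 reads over the library totals. P-cadherin, the product of Cdh3 and a cadherin of epithelia and placenta, had 2, 2 and 1 reads at D0, 1 read in D2 replicate 3, 1 read in D4 replicate 2 and none at D6. In both genes every D0 library was above every D6 library, but 3 against 3 cannot go below the exact permutation p of 0.10 that each gave (two-sided). These intervals cover counting error only, and the depth could not show levels under the limit.

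The name cadherin switch therefore did not describe these reads in full. At D0 Cdh2 already made up 208 of the 218 reads on the 3 cadherins (95.4%, exact 95% interval 91.7 to 97.8%), and at D6 it made up 193 of 193 (98.1 to 100%). The 3 transcripts are close in length, 4843 nt for Cdh2, 4430 nt for Cdh1 and 4384 nt for Cdh3, so a scale per length (42.9, 1.13 and 1.14 reads per 1000 nt at D0) restates these counts. The few Cdh1 and Cdh3 reads all came before D6, and Cdh2 at D6 did not pass the test against D0.

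**Figure D1:**
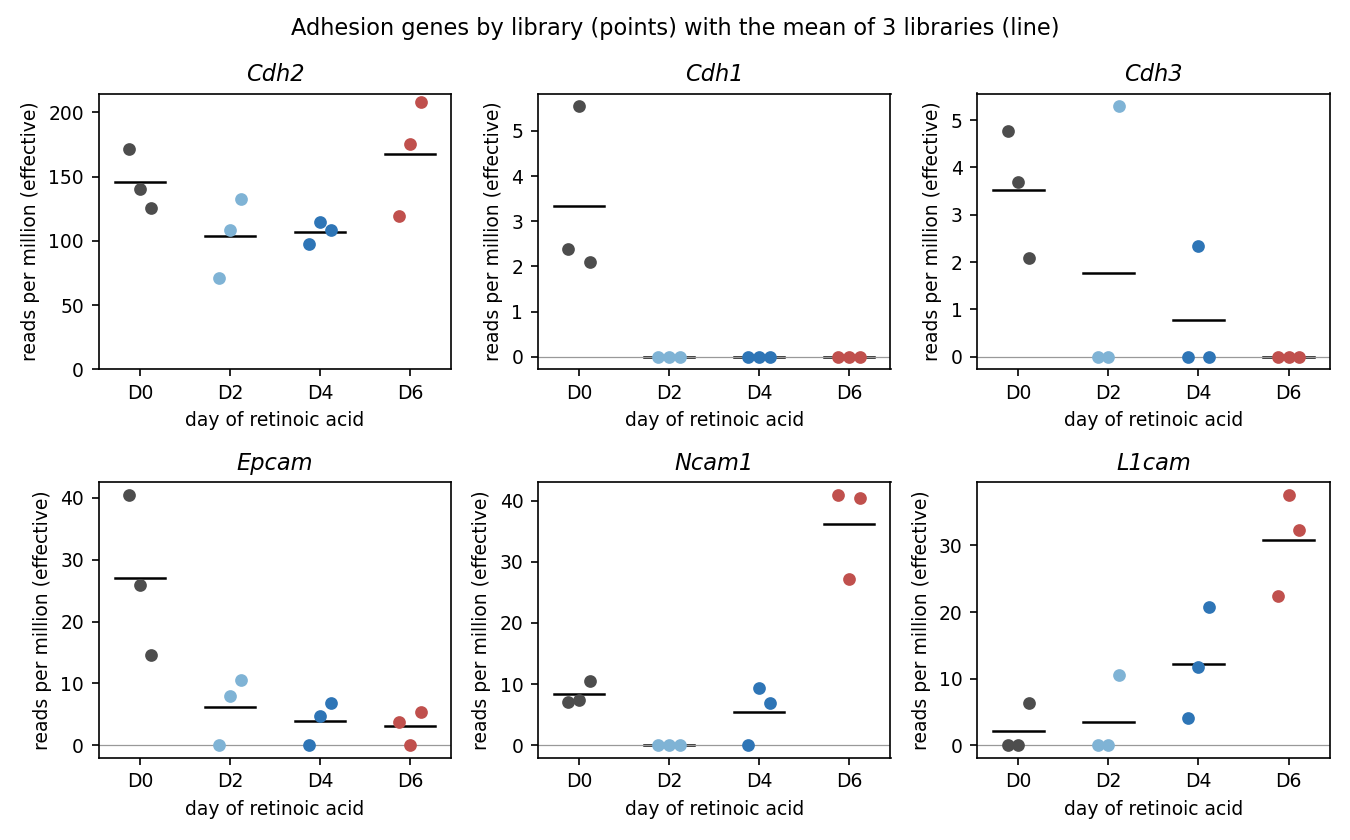
Level of the 6 genes with reads in each library, in CPM after TMM scaling (vertical axes, linear, a different range in each panel) against day, with 1 point per library and a line at the mean of 3 libraries. Cdh2 lies between 71.3 and 208 throughout, Cdh1 is above 0 at D0 only, Epcam is highest at D0, and Ncam1 and L1cam are highest at D6.

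Epcam fell. It had 17, 14 and 7 reads at D0, or 40.5, 25.9 and 14.7 CPM. At D2 it had 0, 2 and 2 reads, at D4 0, 2 and 3 reads, and at D6 1, 0 and 2 reads, the last being 3.73, 0 and 5.40 CPM. Each D0 library lay above each of the 9 later libraries, of which the highest held 10.6 CPM. The fall passed the test at D4 (log2 fold change -2.36 ± 0.64, adjusted p = 0.00356) and at D6 (-3.02 ± 0.68, adjusted p = 0.000249), while the value at D2 was -1.58 ± 0.65 (adjusted p = 0.113, and 0.0467 without D0 replicate 3). The D6 value was -2.04 (adjusted p = 0.0255) without D6 replicate 2, which held no Epcam read, and -1.88 (adjusted p = 0.00217) with the limma trend method. With 3 reads left at D6, the pooled ratio of D0 to D6 was 8.30, with an exact counting interval of 2.63 to 42.0.

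The claudins were not seen. Cldn6, a claudin of embryonic epithelia, and Cldn7, a claudin of most adult epithelia, had no read of any quality tag in any library. By the limit of 3 reads over library totals, a count of 0 allows 0.702 reads per 1000000 over the 12 libraries, 1.90 at D0 and 2.89 at D6.

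Ncam1 rose late. At D0 its libraries held 3, 4 and 5 reads, or 7.15, 7.40 and 10.5 CPM. None was read at D2, where 0 of 545795 reads allows 5.50 per 1000000 by the same limit, and D4 gave 0, 4 and 3 reads. At D6 there were 11, 13 and 15 reads, or 41.0, 27.2 and 40.5 CPM. Every D6 library lay above every library of the earlier days. Ncam1 rose by 1.94 ± 0.45 on the log2 scale at D6 against D0 (adjusted p = 0.000391) and by 2.52 ± 0.57 against D4 (adjusted p = 0.00153), the latter being 1.91 (adjusted p = 0.0181) without D4 replicate 1. The values at D2 (-1.75 ± 0.74, adjusted p = 0.124) and D4 (-0.58 ± 0.65, adjusted p = 0.558) did not pass.

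L1cam rose by D6, and its call at D4 depended on single libraries and on the method. At D0 it had 0, 0 and 3 reads and at D2 0, 0 and 2. The D4 libraries held 1, 5 and 9 reads, or 4.07, 11.7 and 20.7 CPM. At D6 the libraries had 6, 18 and 12 reads, or 22.4, 37.6 and 32.4 CPM. The D6 libraries were all above the D4 libraries, though D4 replicate 3 came close at 20.7, and the difference between these days did not pass the test (1.32 ± 0.48, adjusted p = 0.0779). Its log2 fold change against D0 was 1.22 ± 0.93 at D2 (adjusted p = 0.466), 2.72 ± 0.78 at D4 (adjusted p = 0.00583) and 4.04 ± 0.71 at D6 (adjusted p = 3.8e-06). The D4 call was lost without D0 replicate 2 (2.12, adjusted p = 0.0812), without D4 replicate 3 (2.25, adjusted p = 0.0541) and with the limma trend method (1.18, adjusted p = 0.0816). All 3 D0 reads came from D0 replicate 3. Without it the values were 2.08 at D2, 3.67 at D4 and 4.93 at D6, and without D2 replicate 3 the D2 value was 0.46. Neither D2 value was called, and the D6 value was 3.37 without D0 replicate 2 and 2.30 with the limma trend method (adjusted p = 0.000308), where it was still called. The pooled ratio of D6 to D0 was 18.3 with an exact counting interval of 5.79 to 92.9.

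Set against all genes, 0 of the 4 tested members were called at D2 against D0, where the share of all genes called was 10.7%. The count was 2 at D4 (all genes 25.3%) and 3 at D6 (all genes 37.6%). At D6, 2 were higher and 1 was lower, beside 19.4% and 18.2% of all genes. With library totals alone the split over all genes at D6 moved from 1806 higher and 1695 lower to 2588 and 1162, and the directions of Epcam, Ncam1 and L1cam stayed. Between neighbouring days, 0 members were called at D4 against D2 (all genes 3.01%) and 2 at D6 against D4 (all genes 8.35%). Epcam passed the minimum of 30 reads only through D0, and Ncam1 and L1cam only through D6, since each had fewer reads than that on its other days together. They had to differ to be tested, so nothing is read from these counts against the shares of all genes.

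**Figure D2:**
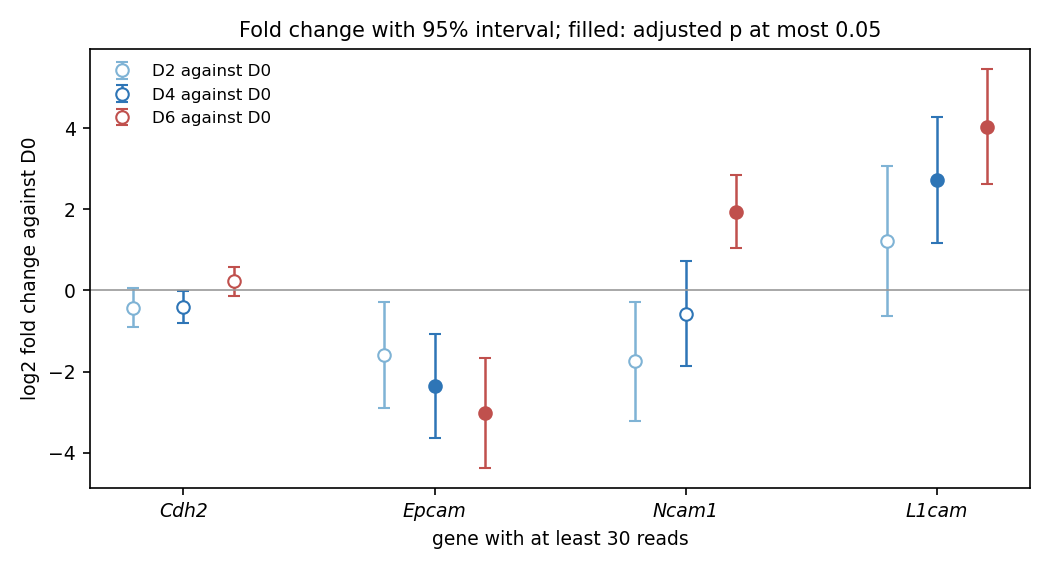
Log2 fold change against D0 (vertical axis) of the 4 genes with at least 30 reads, at D2, D4 and D6, with bars for the 95% interval and filled points for an adjusted p of at most 0.05. Epcam lies at -3.02, Ncam1 at 1.94 and L1cam at 4.04 at D6, and the Cdh2 intervals stay between -0.90 and 0.58.

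Which transcript models carried the reads was limited by where the reads began. The median aligned length was 1257 nt for Cdh2, 1311 nt for L1cam, 750.5 nt for Ncam1 and 1323.5 nt for Epcam, and reads over at least 90% of their transcript numbered 0, 0, 0 and 5. Across 12356 transcripts with at least 30 reads, 29.2% were called at D6 against D0. Of the 5 such transcripts of the members 3 were called, each of which reached the minimum only through the day on which it was high, so nothing is read from this count. They were ENSMUST00000114430.7 of L1cam (3.99 ± 0.75, adjusted p = 4.41e-05), ENSMUST00000193547.5 of Ncam1 (1.80 ± 0.48, adjusted p = 0.00329) and ENSMUST00000234623.1 of Epcam (-2.48 ± 0.70, adjusted p = 0.00600). The Epcam transcript kept its 30 reads in 2 of the 6 fits without 1 library, and its call was lost in 1 of them, without D6 replicate 2 (-1.57, adjusted p = 0.116), while the L1cam value was 3.36 without D0 replicate 2 and 4.93 without D0 replicate 3. For Cdh2, ENSMUST00000025166.13 with 523 reads gave 0.15 ± 0.20 (adjusted p = 0.619) and ENSMUST00000115850.1 with 57 reads gave 0.84 ± 0.56 (adjusted p = 0.266). Without 1 library the former ranged from 0.00071 to 0.39 and the latter from 0.24 to 1.18, and neither was called.

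L1cam is known for a 12-base exon in the part that encodes its inner tail, included mainly in neurons. In the annotation that exon spans chrX:73855652-73855663 and is present in ENSMUST00000102871.9 but not in ENSMUST00000114430.7. All 56 reads were assigned to the model without it. This does not show that the exon was skipped, because all 56 reads also ran past the annotated end of the other model, which is 177 nt shorter at its 3′ end, and the table keeps no base-level alignment. Of the 56 reads, 23 were long enough to cross the position.

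Epcam transcripts are short enough for some reads to reach their start. Of 50 reads, 21 began within 100 nt downstream of chr17:87636682, the start of ENSMUST00000234623.1, 2 began upstream of it and 27 further downstream. The other annotated start, that of ENSMUST00000053577.8, lies 703 nt upstream at chr17:87635979. The aligner could seldom tell these models apart, and 7 of the 50 Epcam reads had a mapping quality of at least 10. The share was 29.3% for Ncam1, 77.7% for Cdh2 and 100% for L1cam, Cdh1 and Cdh3.

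Cdh2 had a pair of main 3′ ends in its last exon of 1477 nt, and this was noticed after the data were seen. Of 582 reads, 443 ended at the distal end near chr18:16588877, 108 at a proximal end 822 nt before it, 20 at an end 114 nt before it and 11 elsewhere. The commonest distal position is the last annotated base of ENSMUST00000025166.13, past which no read could align. The proximal end was shared by both models, with 54 reads on each, and none of the 57 reads on ENSMUST00000115850.1 had a mapping quality of at least 10, so the second model stood mostly for the proximal end. Of reads at the proximal or distal end, the proximal share was 11.4, 19.7 and 17.9% in the D0 libraries, 12.5, 29.2 and 25.0% at D2, 31.8, 27.7 and 13.0% at D4, and 23.3, 17.5 and 20.5% at D6. The days overlapped. The mean was 16.3% ± 4.35 (SD, n = 3) at D0 and 20.5% ± 2.92 at D6, a difference of 4.13 percentage points (two-sided exact permutation test, p = 0.30). The share of Cdh2 reads on its most-read model was likewise 92.1% ± 4.59 at D0 and 89.1% ± 3.24 at D6 (two-sided exact permutation test, p = 0.50), where 3 against 3 cannot go below 0.10. With a mapping quality of at least 10 it was 99.5% at D0 and 99.4% at D6, a difference of -0.03 percentage points.

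Tails were shorter at the proximal end of Cdh2. The pooled median tail was 94.9 nt over its 108 reads and 123 nt over the 443 distal reads. Within a library the proximal median was lower than the distal median in 9 of the 11 libraries with at least 3 reads at each end. The mean difference was -27.1 nt ± 25.2 (SD over 11 libraries), with p = 0.0107 in a two-sided exact permutation test that flips the sign of each library's difference and cannot go below 0.000977. The exceptions were D2 replicate 2 (23.5 nt longer) and D6 replicate 1 (9 nt longer), which held 7 proximal reads each. With at least 7 reads at each end, the difference was -24.7 nt over 9 libraries (exact permutation p = 0.0352).

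**Figure D3:**
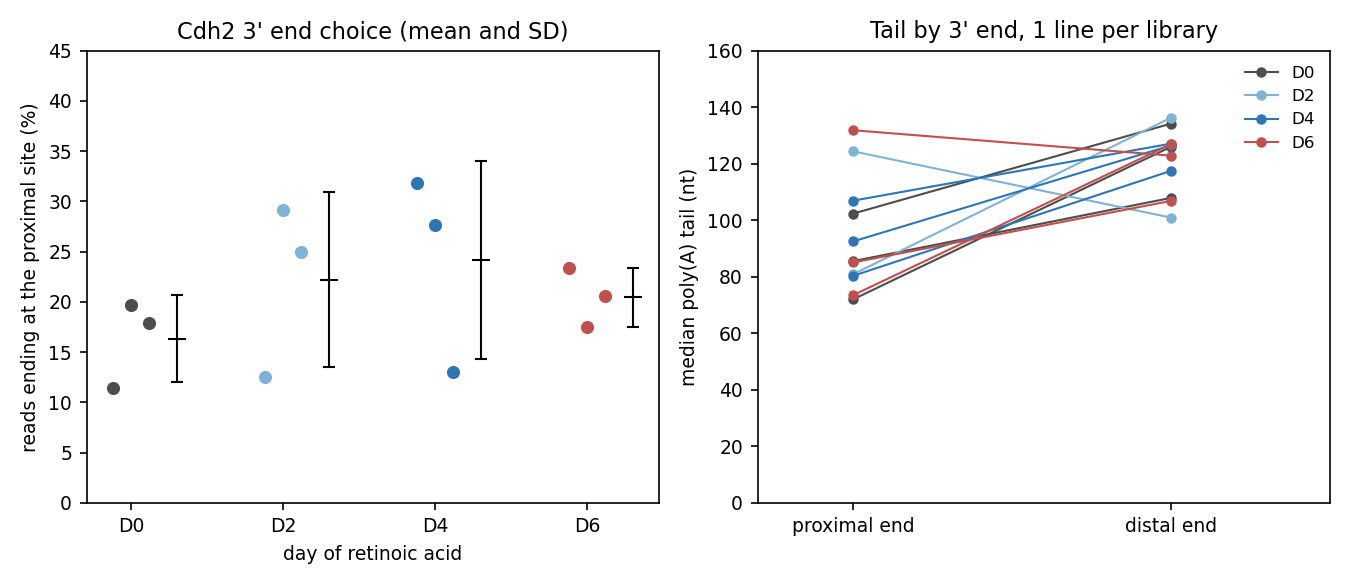
Left, share of Cdh2 reads at the proximal rather than the distal 3′ end (percent) by day, with 1 point per library and bars for mean ± SD. Right, median poly(A) tail (nt) of reads at the proximal and distal ends, with 1 line per library with at least 3 reads at each end, coloured by day. The shares overlap between days, and 9 of 11 lines are lower at the proximal end.

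The tail of Cdh2 as a whole did not pass a test between D0 and D6. Its median per library was 122, 108 and 127 nt at D0 and 123, 122 and 104 nt at D6. The means were 119 and 117 nt, a difference of -2.58 ± 9.10 nt in limma (adjusted p = 0.933 over 4592 genes, 95% interval -24.2 to 19.03 nt), beside a median change of 4.93 nt over all genes. Without 1 library the difference ranged from -8.18 to 3.71 nt, so its sign was not fixed. Tails of 30 to 90 nt, a range around one of the lengths the study followed, made up 32.5% of Cdh2 reads at D0 and 33.3% at D6 (difference 0.86 ± 4.88 percentage points, adjusted p = 0.966). This difference was 8.22 percentage points with limits of 35 and 85 nt (adjusted p = 0.577) and ranged from -1.96 to 3.05 without 1 library. These tests called 0.0218% and 0% of genes, with 558 and 485 genes at an unadjusted p under 0.05. The other members had too few reads for them. Pooled over libraries, the median tail was 119 nt over 38 Epcam reads at D0, 140 nt over 39 Ncam1 reads at D6, 135 nt over 36 L1cam reads at D6 and 101 nt over the 5 Cdh1 reads, beside 103 nt for all reads at D0 and 102 nt at D6.

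The genes whose level followed Cdh2 most closely over the 12 libraries, among 2796 genes averaging 20 or more reads in a library, were Csnk1d (Pearson r of log2 level 0.89), which encodes a casein kinase, Vapb (0.89), an endoplasmic reticulum membrane protein, Clint1 (0.82), a clathrin adaptor, Ubtf (0.81), a factor of ribosomal RNA transcription, and Oaz2 (0.81), an antizyme of polyamine synthesis. These are descriptions over libraries that share day, run and depth. The same measure for Cdh1 would rest on 5 reads in 3 libraries and is not given.

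Adhesion genes of 8 other lists placed the members in their pathway at D6 against D0, where the median log2 fold change of all genes was 0.01, and 19.4% of all genes were called higher and 18.2% lower. The lists were chosen with earlier results of these data known, so nothing is read from their counts of calls against these shares. Of the catenins and junction linkers, 10 of 10 were tested, 5 rose and none fell, with a median of 0.39. Ctnnd1, the p120 catenin that steadies cadherins at the membrane, rose by 1.34 ± 0.44 (adjusted p = 0.0124), and Ctnna1, the alpha-catenin that reaches actin, rose by 0.48 ± 0.19 (adjusted p = 0.0380). Both tested genes of 12 other classical cadherins rose, Cdh11 by 1.64 and Cdh6 by 1.42, and they are named after their values were seen. Of the protocadherins and other members of the cadherin family 9 of 18 were tested, 6 rose and 1 fell, beside the same shares of all genes, with a median of 1.57. Celsr3 (3.38 ± 0.62, adjusted p = 1.06e-05), Dchs1 (1.83 ± 0.38, adjusted p = 9.3e-05) and Celsr2 (1.57 ± 0.45, adjusted p = 0.00399), large cadherins of planar polarity, rose, and Fat1 fell by 1.92 on the log2 scale (adjusted p = 7.4e-06).

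Of 8 desmosome genes 2 were tested and both fell, beside 18.2% of all genes called lower. Pkp2 had a log2 fold change of -2.06 (adjusted p = 0.00204) and Pkp4 had one of -0.96 (adjusted p = 0.0381). Both genes encode plakophilins, and 1 of the calls was lost with library totals alone. None of the 10 epithelial regulators reached 30 reads, and their summed level was 0 to 11.9 CPM at D0 and 0 to 2.70 at D6. Of the regulators of epithelial to mesenchymal transition 3 of 8 were tested, 2 rose and none fell, beside 19.4% and 18.2% of all genes. Zeb1 rose by 1.38 ± 0.33 (adjusted p = 0.000597) and Tcf4 by 0.96 ± 0.32 (adjusted p = 0.0140). Zeb1 is a repressor known to act on Cdh1 and is also expressed in neural progenitors.

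Called genes of the list of immunoglobulin-type adhesion molecules went in both directions, with Bsg alone called lower. Of 24 immunoglobulin-type genes other than the members 13 were tested, 6 rose and 1 fell, beside 19.4% and 18.2% of all genes, with a median of 0.39. Cntn2, an axonal contactin, rose by 3.99 ± 0.66 (adjusted p = 1.21e-06), Cadm4 by 3.23 ± 0.49 (adjusted p = 2.13e-07) and Cadm3 by 1.43 ± 0.44 (adjusted p = 0.00709), both adhesion molecules of neural cell contacts. Bsg, the broadly expressed basigin, fell by 0.65 on the log2 scale (adjusted p = 5.44e-05). Among 10 enzymes that modify cadherins or Ncam, 8 were tested, 2 rose and 1 fell, beside the same shares of all genes. St8sia2, which adds polysialic acid to Ncam1, rose by 2.86 ± 0.50 (adjusted p = 4.31e-06) from 5.71 ± 1.80 CPM at D0 to 46.5 ± 6.02 at D6 (SD, n = 3). Mgat3, which adds the bisecting sugar of N-glycans, rose by 1.55 ± 0.47 (adjusted p = 0.00670), and Psen2, a presenilin, fell by 1.94 on the log2 scale (adjusted p = 0.0152) and is named after its value was seen. Of the genes named from the lists, Cntn2, Celsr3, St8sia2 and Cdh11 reached 30 reads only through D6 and Pkp2 and Psen2 only through D0, so the counts of calls lean toward genes that are high on 1 of these days. The direction of each list's calls was the same under all 3 scalings.

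**Figure D4:**
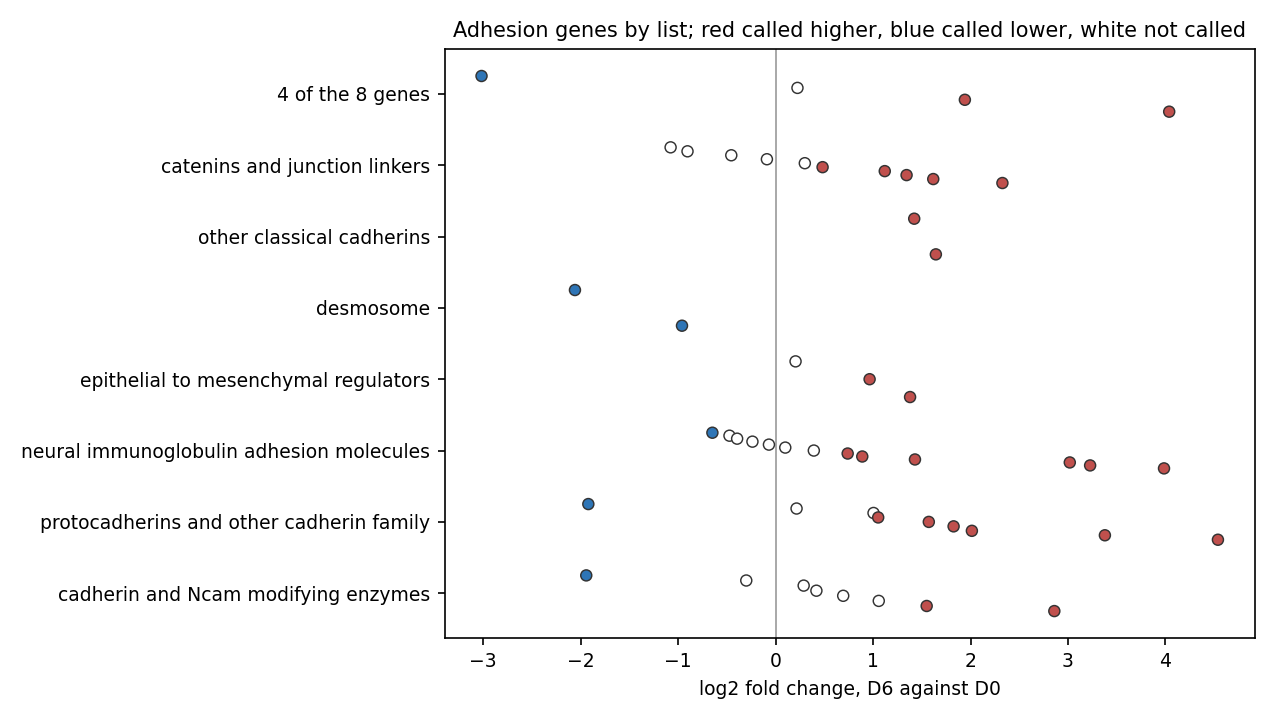
Log2 fold change at D6 against D0 (horizontal axis) of each tested gene, with 1 point per gene, in rows for the 4 tested members and 7 of the adhesion lists (the epithelial regulators had no tested gene). Red points were called higher, blue points were called lower and white points were not called. The catenins have red and white points only, the classical cadherins have red points only, and the desmosome row has blue points only.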

How the data were processed

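Direct RNA-seq had been carried out by the authors on poly(A) RNA of P19 cells (12 libraries, 3 per day at 4 days). Per the labels, reads were aligned with minimap2 2.20 to mm10 transcripts. The study's methods name Guppy for base calling, Nanopolish for tails and Deeplexicon for barcodes. The authors deposited 1 table with 1 line per read (6306434 lines, 69 malformed and left out) that gives a transcript, alignment positions, a mapping quality score and a poly(A) tail length estimate in nt. The authors also give the barcode confidence of a read as a fraction, which was not filtered further here. A second deposited table holds only the authors' DESeq2 comparisons (log2 fold changes and adjusted p-values) and was not used. Lines without a library (289260) were left out.

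Reads with the tag PASS on mRNA-class transcripts, without mitochondrial and pseudogene transcripts, were tallied per gene and library. A low-expressed gene with 1 to 3 reads has wide counting error, and CPM values rest on 120326 to 613756 reads. Tallies with at least 30 reads were fitted with limma-voom (limma 3.58.1, R 4.3.3, TMM trims of 30% and 5%, pseudocount 0.5), day as a factor over all 12 libraries, called at an adjusted p of 0.05. The gene fit and the median tail fit for D6 against D0 were tested on simulated data. Tails used limma on medians per library for genes averaging 10 or more reads at D0 and at D6, with 3 or more in every D0 and D6 library. Exact tests used scipy 1.17.1. Ends at most 30 nt apart formed 1 cluster. Genome positions came from GENCODE vM21 (GRCm38).

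The members and lists were chosen with earlier results of these data known. All members were named, as was every member transcript with at least 30 reads, and per list and direction at most 3 called genes with the largest change and 10 or more reads on average at D0 or D6, and for Cdh1 and Cdh2 the 5 genes most alike (not given for Cdh1, which had 5 reads). The list of tight junction and polarity genes is not reported here. Other scalings, filters, qualities, the replicate number as a block and leaving out each library were tried.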

Additional observations from a re-analysis of the deposited data

Results flagged for a closer look

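L1cam reads without a library were the result that stood out. Of 65 L1cam reads with the tag PASS, 9 (13.8%) carried no barcode call and were left out of every comparison, beside 3.42% of all PASS reads. All 9 came from runs that held D6 libraries, and none came from a run of D0. The 3.42% covers the runs of all days, and the share in D6 runs alone is not given. They could not be given to a replicate, so D6 counts of L1cam are lower than the number of D6 molecules read. The corresponding counts were 10 of 592 for Cdh2, 2 of 52 for Epcam, 1 of 8 for Cdh3 and 0 of 58 for Ncam1.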

How the results depend on the processing

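Members called at D6 against D0 were 3, and 3 in each fit without 1 library. They numbered 4 with library totals alone, where Cdh2 joined (0.46, adjusted p = 0.0330), 5 with no filter on low counts, where Cdh1 (-1.59, adjusted p = 0.0482) and Cdh3 (-1.66, adjusted p = 0.0436) joined, 0 with at least 120 reads, where only Cdh2 was left to test, and 1 with a mapping quality of at least 10, where Epcam and Ncam1 had under 30 reads. At D4 against D0 (2 called) the counts were 0 with at least 120 reads, 1 with the limma trend, 1 with the mapping quality and 1 to 2 without 1 library. For D2 against D0 (0 called) they were 2 without the filter, 2 with the trend and 0 to 1 without 1 library. At D6 against D4 (2 called) they were 1 without the filter, 1 with at least 120 reads, 1 with the trend, 0 with the mapping quality and 1 to 2 without 1 library.

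Over all genes, D2 against D0 gave 1616 calls without the filter, 634 with the mapping quality and 643 to 920 without 1 library (997 as reported). At D6 against D0 there were 2319 with at least 120 reads, 2197 with the mapping quality and 2796 to 3203 without 1 library (3501). D4 against D2 gave 540 with the trend, 432 with any quality tag and 148 to 279 without 1 library (280). D6 against D4 gave 414 with the trend, 388 with the mapping quality and 472 to 739 without 1 library (777), and D4 against D0 gave 1826 to 2068 without 1 library (2359). Transcripts called were 2240 with the mapping quality and 2780 to 3177 without 1 library (3612). The 1 gene called for its median tail was 0 with the mean of log2 tail length, 0 with the replicate block and 0 to 1 without 1 library, and the tail class gave 1 gene with a mean of at least 20 reads. The Cdh2 proximal share difference lay between 1.67 and 5.82 percentage points and its tail difference between -32.1 and -24.2 nt without 1 library, settings chosen after seeing the data. Where the cause is not in the setting's own construction, it was not tested.

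Of 155 values for members under the settings that keep all libraries, 145 kept their side of the threshold, 4 lost a call, 6 gained 1 and no called value reversed. The calls lost there were Cdh2 at D6 against D4 without the filter (0.63, adjusted p = 0.0624), with the trend (0.59, 0.132) and with the mapping quality (0.69, 0.125), and L1cam at D4 with the trend (1.18, 0.0816). At D2, Epcam was gained without the filter and with the trend (adjusted p = 0.0491 and 0.0267), as was Ncam1 (0.0383 and 0.0353). Cdh2 at D4 against D0 was called with any quality tag (-0.44, adjusted p = 0.0497). Without 1 library, Cdh2 at D6 against D4 lost its call in 5 of 6 fits and L1cam at D4 in 2 of 6, and Epcam at D2 gained 1. Values that were not called did change sign: Cdh2 at D4 against D2 (0.02) was -0.04 with library totals, -0.03 with median-of-ratios factors, -0.02 with any quality tag, -0.00274 with the replicate block and -0.08 without D2 replicate 1, Ncam1 at D4 against D0 (-0.58) was 0.05 with any quality tag, and Epcam at D6 against D4 (-0.66) was 0.31 without D6 replicate 2. The differences of Cdh2 in median tail and tail class also changed sign without 1 library (-8.18 to 3.71 nt and -1.96 to 3.05 percentage points). Same-numbered libraries did not deviate together (correlations -0.14 to 0.17 over 18 pairs), so the number was not taken as a pairing, and the replicate block changed no member's call.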
